A study of Mus musculus with 20 samples.

Results

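The comparison described here set nuclei that stain for NeuN against nuclei that do not, both sorted by flow cytometry from the spinal cord of healthy mice. NeuN is the protein product of Rbfox3, a splicing factor found in the nuclei of most mature neurons. The members were all genes of the table in the 10 healthy libraries, 5 NeuN-positive and 5 NeuN-negative, of the 20 libraries in the series. The other 10 libraries came from the same sorts 15 days after active immunization for experimental autoimmune encephalomyelitis (EAE), a mouse model of multiple sclerosis, and were used for a repeat of the comparison at the end and for 1 alternative fit of all 20 libraries. The labels give neither strain, age nor sex, and do not say whether each library came from 1 mouse or from pooled cords. They also do not say that libraries of a group came from separate animals, so the p-values measure the spread between libraries, which may be technical.

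The spinal cord holds excitatory, inhibitory and motor neurons beside oligodendrocytes, which wrap axons in myelin, astrocytes, which take up transmitter and potassium, microglia, which are the resident phagocytes, and the cells of vessels, meninges and the central canal. A sort on a nuclear protein leaves most of the cytoplasm and the axon behind, though these libraries still held 0.1969% to 4.512% mitochondrially encoded counts. The RNA is then mainly nuclear RNA, which is known to be rich in unspliced transcripts and in long noncoding RNAs that stay in the nucleus. The unspliced share was not measured here. NeuN is also known to be weak or absent in some neurons, among them the neurons that contact the cerebrospinal fluid.

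Of 43629 genes in the table, 17134 passed the filter on low counts, and 7848 of them (45.8%) differed between the sorts at an adjusted p under 0.05 in edgeR's quasi-likelihood test. In NeuN-positive nuclei 3910 genes (22.8%) were higher and 3938 (23.0%) were lower, and these shares are the background for each gene list below. The median log2 fold change over all genes tested was -0.01. All fold changes below are NeuN-positive against NeuN-negative on the log2 scale with their standard errors, and levels are CPM, each gene's counts scaled to a common library size, with 5 libraries a group. Library totals ran from 8336330 to 37689267 counts. The mitochondrially encoded share of counts was 0.910% ± 1.20 (SD, n = 5) in NeuN-positive and 1.79% ± 1.67 (SD, n = 5) in NeuN-negative libraries, which overlapped (p = 0.381 in a two-sided exact permutation test, 0.605 adjusted over 5 library measures). It was lower in NeuN-positive nuclei in all 5 same-numbered pairs; a two-sided exact permutation of signs within pairs, added after seeing the data, gave p = 0.0625, the smallest that 5 pairs allow (0.156 adjusted over the 5 measures). The 2 libraries numbered 3 stood apart from the rest, with 3.003% and 4.512% mitochondrially encoded counts. Results that rest on them are given with and without them.

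The 4 genes chosen to mark the sort separated the libraries without overlap. Rbfox3 (chromosome 11, 118489762 to 118911597, GRCm38) stood at 339, 320, 316, 299 and 263 CPM in NeuN-positive libraries 1 to 5 and at 13.04, 21.0, 40.03, 33.0 and 37.2 CPM in NeuN-negative libraries 1 to 5. Its log2 fold change was 3.42 ± 0.30 (adjusted p = 2.53e-06), so some Rbfox3 RNA remained in every NeuN-negative library. Snhg11, a noncoding RNA of neuronal nuclei, rose by 4.28 ± 0.33 (adjusted p = 1.07e-06). Erbb3, the neuregulin receptor of oligodendrocytes and Schwann cells, held 7.93, 5.92, 8.84, 9.04 and 6.35 CPM in NeuN-positive against 329, 365, 256, 258 and 236 CPM in NeuN-negative libraries, a log2 fold change of -5.25 ± 0.23 (adjusted p = 2.75e-07). Csf1r, the receptor on which microglia depend for survival, fell by 4.92 on the log2 scale (SE 0.28, adjusted p = 2.85e-07).

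**Figure D1:**
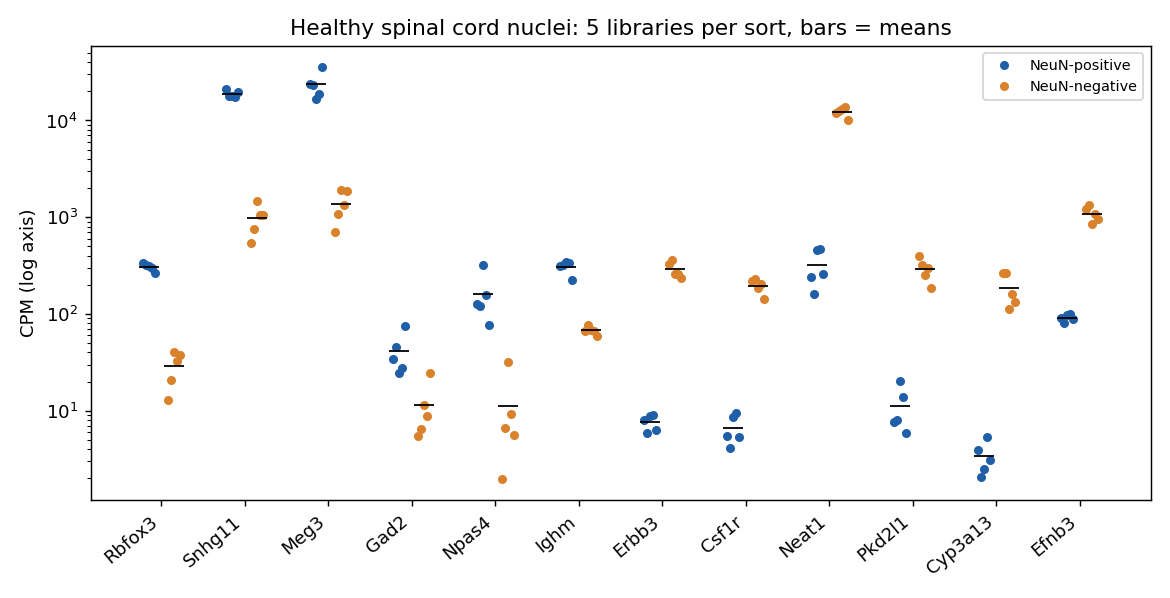
Levels of 12 genes in each healthy library, in CPM on a log axis, with blue points for the 5 NeuN-positive and orange points for the 5 NeuN-negative libraries and bars for the group means. The groups do not overlap for any gene shown; the lowest Rbfox3 value in NeuN-positive libraries is 263 CPM and the highest in NeuN-negative libraries is 40.03 CPM.

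The markers of the main glial, vascular and meningeal classes were lower in NeuN-positive nuclei almost throughout. All 19 microglial markers tested fell, with a median log2 fold change of -4.49, among them Siglech (-5.45 ± 0.47), a lectin of microglia, and Trem2 (-5.24 ± 0.50), a lipid receptor of phagocytes. Of 22 mature oligodendrocyte markers 20 fell (median -4.16), led after Erbb3 by Aspa (-5.23 ± 0.59), which breaks down N-acetylaspartate, Opalin (-5.20 ± 0.31) and Mag (-5.05 ± 0.30), both proteins of the myelin membrane. Of 18 astrocyte markers 17 fell (median -2.54), of 13 oligodendrocyte precursor markers 11 (median -3.46), of 17 endothelial markers 16 (median -1.96) and of 11 fibroblast and meningeal markers all 11 (median -2.38). Other lists were mixed. Of 17 ependymal markers 8 fell and 1 rose, and of 4 erythroid markers 2 fell and none rose. Of 4 T and NK cell markers none fell and 1 rose, though not in every fit without 1 library. The summed marker level in NeuN-positive libraries, as a share of that in NeuN-negative libraries, was 5.81% for microglia, 24.8% for mature oligodendrocytes, 25.6% for astrocytes and 28.8% for endothelial cells. The share for mature oligodendrocytes rests largely on NeuN-positive library 3. Their sum was 46310 CPM there and 3768 to 11620 CPM in the other NeuN-positive libraries, against 43410 to 83890 CPM in NeuN-negative libraries. In such bulk libraries fewer nuclei of a type and less RNA per nucleus cannot be told apart.

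Single members went against their lists. Notch3, a receptor known from vascular smooth muscle, was higher in NeuN-positive nuclei at 72.0, 77.7, 103, 88.6 and 50.5 CPM against 46.3, 34.7, 42.8, 25.5 and 28.4 CPM (1.14 ± 0.24, adjusted p = 0.00175), while 10 other pericyte and smooth muscle markers of 12 fell, such as Pdgfrb (-3.12 ± 0.32). Ighm, the constant region of immunoglobulin M, was higher without overlap, at 310, 317, 342, 335 and 222 CPM against 66.9, 77.7, 67.7, 67.4 and 59.4 CPM (2.17 ± 0.17, adjusted p = 1.28e-06). The B cell genes Cd79b (-3.77 ± 0.84) and Pax5 (-3.63 ± 0.86) of the same list moved the other way.

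**Figure D2:**
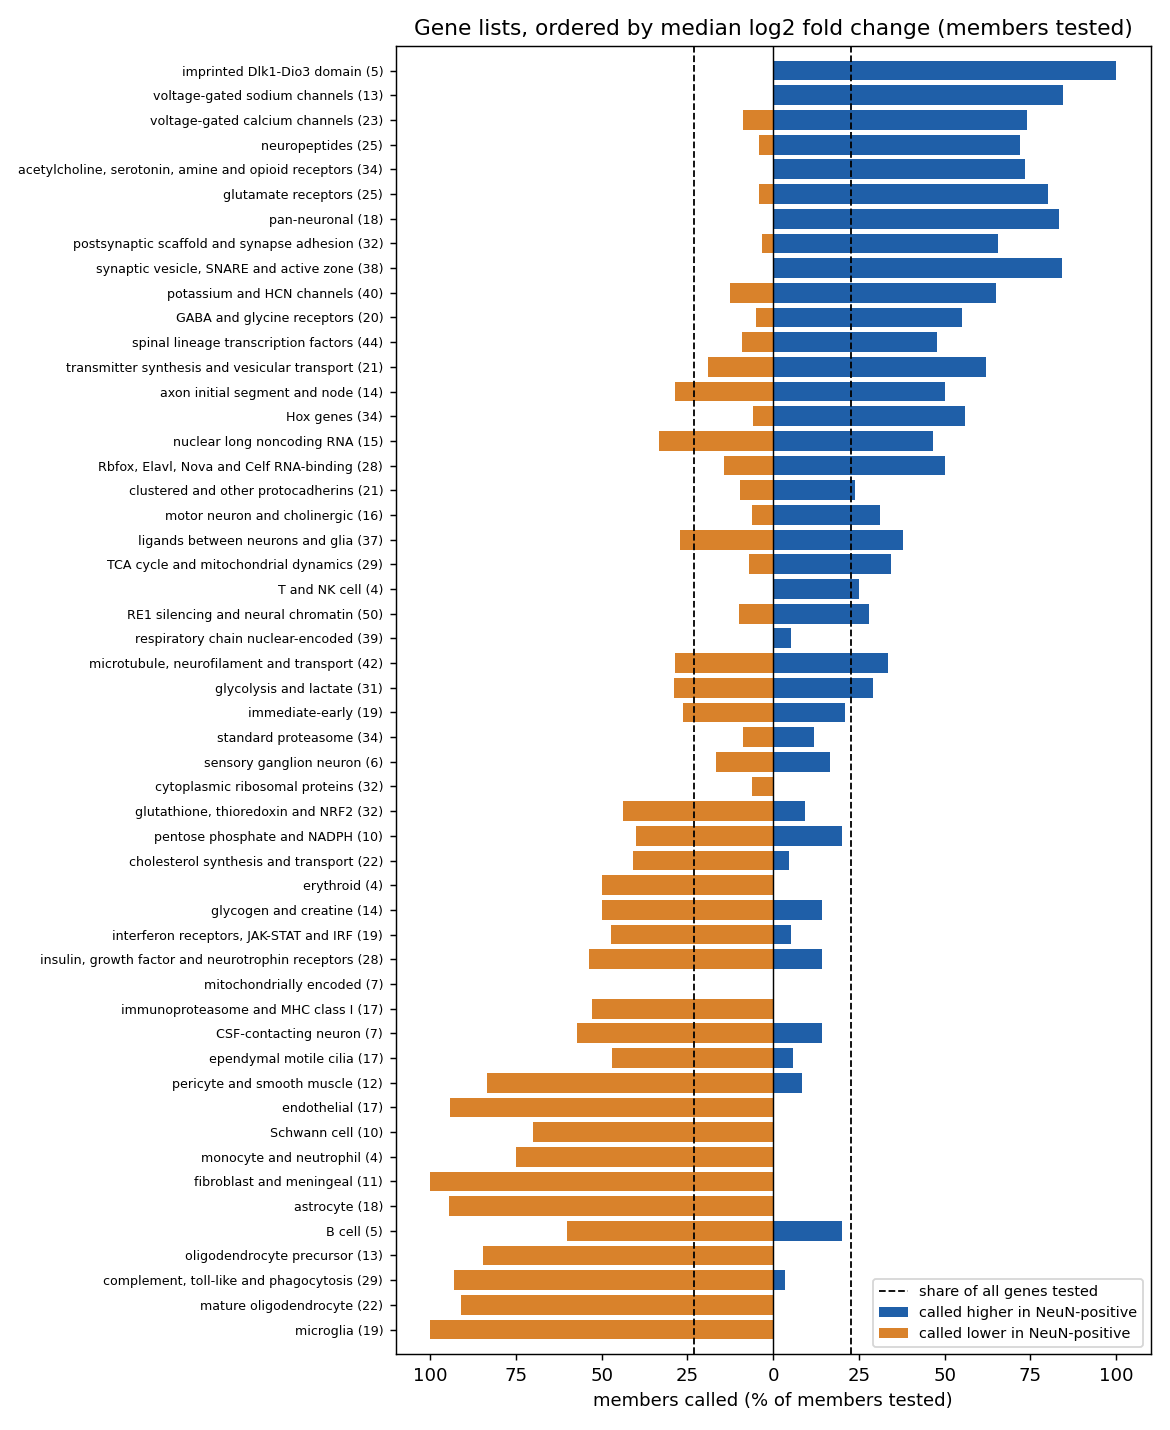
Share of the tested members of each of 52 gene lists called higher (blue, to the right) or lower (orange, to the left) in NeuN-positive nuclei, in percent, with the number of members tested in brackets. Dashed lines mark the shares over all genes tested, 22.8% higher and 23.0% lower; lists of synapse, channel and transmitter receptor genes lie above the first line and lists of glial and vascular markers beyond the other.

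Neuronal classes did not follow NeuN to the same extent. The pan-neuronal list had 15 of 18 members higher and none lower, and its summed level in NeuN-positive libraries was 1180% of that in NeuN-negative libraries. By contrast the list of the neurons that contact the cerebrospinal fluid stood at 20.1% of the NeuN-negative level, and most of that sum was 1 gene, Pkd2l1. Without it the other 6 members summed to 42.0 to 84.7 CPM in NeuN-positive and 24.4 to 56.3 CPM in NeuN-negative libraries, or 145% of the NeuN-negative level, with overlap of the groups. Pkd2l1 (chromosome 19, 44147637 to 44192442), the channel that defines these cells, was at 7.59, 8.07, 20.1, 13.8 and 5.86 CPM in NeuN-positive and at 393, 318, 254, 296 and 188 CPM in NeuN-negative libraries. That is a log2 fold change of -4.72 ± 0.38 (adjusted p = 1.54e-06), close in size to that of Csf1r. Of the 6 other members tested, the transcription factor genes Tal2 (-2.39 ± 0.60), Tal1 (-1.18 ± 0.33) and Gata2 (-1.14 ± 0.40, adjusted p = 0.0334) fell too. Gad2, which encodes an enzyme that makes GABA, rose (1.87 ± 0.45). The call for Gata2 ended when NeuN-negative library 1 or 3 or NeuN-positive library 2, 4 or 5 was left out (adjusted p from 0.0617 to 0.0922) and without both libraries numbered 3 (adjusted p = 0.0598). With the replicate number as a block Pkd1l2, the partner of such channels, fell (-1.34 ± 0.82 without the block) and Gata3 rose (1.38 ± 0.67), where neither was called without it. Gata3 was also higher without NeuN-negative library 3 (adjusted p = 0.000647).

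The cholinergic list of motor neurons stood at 73.0% of the NeuN-negative level in its sum, while the median log2 fold change of its members was 0.37, so that sum and median differ in sign. Chat, which makes acetylcholine, was at 1.01, 2.14, 1.23, 0.459 and 4.59 CPM in NeuN-positive and at 0.510, 0.328, 1.54, 1.55 and 2.73 CPM in NeuN-negative libraries (0.52 ± 0.69, adjusted p = 0.577). Its level was low in all libraries and the groups overlapped. Slc18a3, the vesicular acetylcholine carrier (-0.27 ± 0.35), and Slc5a7, the choline transporter (-0.11 ± 0.62), were not called either, whereas Prph, an intermediate filament of motor and sensory neurons (1.22 ± 0.34), and Ret, the receptor for glial-derived factors (1.66 ± 0.37), rose. Of 16 members tested 5 rose, or 3 without NeuN-positive library 4, and 1 fell, Tns1 (-2.37 ± 0.17), a focal adhesion protein that many cell types make.

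Among transcription factors that set spinal cell fates more were higher than lower in NeuN-positive nuclei. Of 44 tested 21 were higher, 4 lower and 19 not called (median 1.53). Leaving out 1 library gave 14 to 27 higher and 4 or 5 lower, and the fit of all 20 libraries gave 14 and 5. Gbx1, Pax2 and Lmx1b, factors of dorsal horn neurons, rose by 4.11 ± 0.44, 3.84 ± 0.38 and 3.39 ± 0.27, and Pax2 held 34.2 to 47.5 CPM in NeuN-positive against 1.22 to 5.18 CPM in NeuN-negative libraries. Among the 4 that fell were Pou3f1 (-2.38 ± 0.56), a factor of myelinating cells, Sox21 (-2.32 ± 0.62) and Nfib (-1.38 ± 0.17), a factor of glial development. Hox genes, which give the cord its positional identity, had 19 of 34 members higher (median 1.10), led by Hoxc8 (2.34 ± 0.28) and Hoxb5 (2.26 ± 0.21). Hoxd1 stood against them at 0.532, 1.09, 0.514, 0.459 and 0.877 CPM in NeuN-positive and 10.2, 9.19, 3.09, 7.10 and 9.88 CPM in NeuN-negative libraries (-3.47 ± 0.42, adjusted p = 2.91e-05).

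Genes of electrical signalling rose together. Of 13 voltage-gated sodium channel genes tested 11 were higher and none lower (median 2.37), for example Scn9a (3.72 ± 0.39) and Scn1a (2.92 ± 0.47), which held 229, 235, 102, 142 and 360 CPM in NeuN-positive and 13.5, 20.3, 16.7, 25.8 and 64.0 CPM in NeuN-negative libraries. Of 23 calcium channel genes 17 were higher, led by the low-threshold channels Cacna1g (4.01 ± 0.23) and Cacna1i (3.80 ± 0.44), and 2 were lower, Cacna2d4 (-3.73 ± 0.43) and Cacnb4 (-0.93 ± 0.24). Potassium and HCN channels were 26 higher and 5 lower of 40: Kcnt1, a sodium-activated channel, rose by 3.19 ± 0.35, while Kcnj10 (-2.73 ± 0.35) and Kcnj16 (-1.90 ± 0.45), the glial inward rectifiers, fell.

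Receptors and the presynaptic machinery followed the channels. Of 25 glutamate receptor genes 20 rose, among them Grin1, the shared subunit of NMDA receptors (3.99 ± 0.45), and 1 fell, the astrocytic Grm3 (-2.73 ± 0.25). Among receptors for acetylcholine, serotonin, amines and opioids 25 of 34 rose and none fell, with Hcrtr1, the orexin receptor, at 4.48 ± 0.62 and Oprk1, the kappa opioid receptor, at 3.45 ± 0.38. GABA and glycine receptors had 11 of 20 higher, or 7 when NeuN-negative library 1, 2 or 4 was left out. Synaptic vesicle and active zone genes were higher in 32 of 38 cases and lower in none (median 1.65), with Unc13a, the vesicle priming factor, at 3.12 ± 0.26 and the calcium sensor Syt7 at 2.73 ± 0.25. Of 25 neuropeptide genes 18 rose, such as Tac2 (2.84 ± 0.47) and Penk (2.69 ± 0.55), the precursor of enkephalins.

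The SNARE gene Snap25 and the dendritic Map2 did not separate the sorts across libraries. Snap25 was at 517, 548, 306, 394 and 1235 CPM in NeuN-positive and at 165, 179, 143, 247 and 873 CPM in NeuN-negative libraries, with both libraries numbered 5 far above the others (0.90 ± 0.54, adjusted p = 0.197). Within each of the 5 numbers the NeuN-positive library was the higher one, and with the replicate number as a block the adjusted p was 0.000356. Without NeuN-negative library 5 Snap25 was called as well (adjusted p = 0.00383). Map2 gave 0.66 ± 0.28 (adjusted p = 0.0756, with the block 0.000168), and it was called without NeuN-positive library 3 (0.0496) or NeuN-negative library 5 (0.00819). Nefl, the light neurofilament, was at 85.6 to 251 CPM in NeuN-positive and 68.6 to 362 CPM in NeuN-negative libraries (-0.03 ± 0.46, adjusted p = 0.97).

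Several genes best known from neurons and their axons were lower in NeuN-positive nuclei. Cntn2, an adhesion molecule of the axon beside the node of Ranvier, was at 486, 499, 534, 503 and 484 CPM against 2099, 2211, 1746, 1538 and 1451 CPM (-1.85 ± 0.19, adjusted p = 9.98e-06). Nfasc, whose isoforms sit at the axon initial segment and in the myelin loops beside the node, fell by 1.87 on the log2 scale (SE 0.25), and Ptprd, a synaptic adhesion phosphatase, was lower too (-2.45 ± 0.19). Gabbr1, a subunit of the GABA-B receptor, fell (-1.60 ± 0.20) while its partner Gabbr2 rose (2.13 ± 0.38). Cntn2 and Nfasc are also made by oligodendrocytes, and gene counts do not separate isoforms. In the list of 14 genes of the axon initial segment and node, which holds Cntn2 and Nfasc, Sptbn4 (4.23 ± 0.49) and Cntnap1 (3.55 ± 0.22) rose, and in all 7 were higher and 4 lower. Mapt, which encodes tau, was among the 4 (-1.26 ± 0.43, adjusted p = 0.0311), but its groups overlapped and the call ended without NeuN-positive library 1, 2, 4 or 5 or NeuN-negative library 3 (adjusted p from 0.0514 to 0.0778).

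Genes of microtubules, neurofilaments and axonal transport went both ways, 14 higher (33.3%) and 12 lower (28.6%) of 42 (median 0.07). Over all genes tested the shares were 22.8% and 23.0%. Stmn3 (1.80 ± 0.30), Stmn2 (1.66 ± 0.32) and the kinesin Kif1a (1.42 ± 0.18) rose. Their relatives Stmn4 (-3.22 ± 0.33) and Stmn1 (-1.73 ± 0.30), the tubulin Tubb4a (-2.62 ± 0.20), which oligodendrocytes express, and Map7 (-3.66 ± 0.29) fell. Stmn4 was at 45.5 to 147 CPM in NeuN-positive and at 599 to 1120 CPM in NeuN-negative libraries.

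Of 472 lincRNA genes tested, long noncoding RNAs that lie between genes, 22.0% were higher and 20.3% lower, against 22.8% and 23.0% of all genes. In a list of nuclear long noncoding RNAs 7 of 15 were higher and 5 lower. Neat1 (chromosome 19, 5824708 to 5845478), the scaffold of nuclear paraspeckles, was at 241, 160, 461, 469 and 261 CPM in NeuN-positive and at 11860, 12570, 13030, 13790 and 10210 CPM in NeuN-negative libraries. Its log2 fold change was -5.27 ± 0.38 (adjusted p = 6.65e-07). Its neighbour Malat1, a component of nuclear speckles, was at 727 to 2628 CPM against 1335 to 3716 CPM and was not called (-0.46 ± 0.38, adjusted p = 0.358, with the replicate block 0.00745). Miat, another nuclear RNA, went the opposite way to Neat1, at 2956, 2914, 1825, 2124 and 3343 CPM against 237, 227, 239, 230 and 237 CPM (3.49 ± 0.23). All 5 tested genes of the imprinted Dlk1-Dio3 domain on chromosome 12 rose: Mirg (4.42 ± 0.33), Meg3 (4.10 ± 0.39), Rtl1 (3.99 ± 0.52), Rian (3.14 ± 0.78) and Dlk1 (2.15 ± 0.27). How the counting treated strand is not known here, and reads of these genes cannot be told apart from those of overlapping genes.

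Primary transcripts that carry microRNAs differed in both directions, at shares near those of all genes. The libraries were made from polyadenylated RNA and hold precursor transcripts, so mature microRNAs were not measured. By position on the same strand, 67 noncoding genes tested hold 99 microRNA loci of RefSeq's table (GRCm38.p6), and 16 of these host genes were higher (23.9%) and 18 lower (26.9%), against 22.8% and 23.0% of all genes. The mature sequences carried by the hosts with clear differences are printed here with the seed, bases 2 to 8, in capitals; apart from Mirg, Dleu2, Mir142hg and Mir219a-2, these hosts were picked after their values were seen. Carried by transcripts that were higher in NeuN-positive nuclei:
mmu-miR-134-5p: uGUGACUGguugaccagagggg
mmu-miR-382-5p: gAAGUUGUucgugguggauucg
mmu-miR-132-3p: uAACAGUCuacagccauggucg
mmu-miR-212-3p: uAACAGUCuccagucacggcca
mmu-miR-29b-3p: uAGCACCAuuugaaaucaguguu
mmu-miR-29c-3p: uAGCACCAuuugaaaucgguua
Carried by transcripts that were lower in NeuN-positive nuclei:
mmu-miR-219a-5p: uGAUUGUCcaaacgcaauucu
mmu-miR-142a-3p: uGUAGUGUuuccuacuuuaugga
mmu-miR-223-3p: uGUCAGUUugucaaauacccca
mmu-miR-15a-5p: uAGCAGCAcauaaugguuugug
mmu-miR-16-5p: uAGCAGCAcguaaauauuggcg
mmu-miR-9-5p: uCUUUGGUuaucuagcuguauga

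Mirg, which carries miR-134 and miR-382, was at 609, 560, 354, 555 and 511 CPM against 11.3, 17.8, 34.5, 29.9 and 27.5 CPM. The transcript 1700016P03Rik carries miR-132 and miR-212, which share the seed AACAGUC and are known to follow neuronal activity, and rose by 3.60 ± 0.52 (adjusted p = 0.000121) with means of 8.57 CPM in NeuN-positive and 0.724 CPM in NeuN-negative libraries. A330023F24Rik, with miR-29b and miR-29c and their shared seed AGCACCA, rose by 2.69 ± 0.53, and its level in NeuN-positive library 5 was 238 CPM against 39.5 to 63.9 CPM in the other 4. Mir124a-1hg, the host of a microRNA of neurons, rose by 4.25 ± 0.28.

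On the other side, the Mir219a-2 locus, whose microRNA is known from oligodendrocyte differentiation, was at 0.870, 0.869, 2.88, 2.55 and 0.982 CPM in NeuN-positive and at 31.1, 34.9, 26.0, 59.8 and 13.4 CPM in NeuN-negative libraries (-4.39 ± 0.51, adjusted p = 2.37e-05). Mir142hg, host of a microRNA of blood and immune cells, fell by 4.79 on the log2 scale (SE 0.63), F630028O10Rik, which holds the myeloid miR-223, by 3.69 (SE 0.71), and Dleu2, with miR-15a and miR-16 and their shared seed AGCAGCA, by 3.99 (SE 0.66). Of the 3 hosts of miR-9, a microRNA of neural progenitors, Gm3764 (-2.06 ± 0.32) and Mir9-3hg (-1.10 ± 0.24) were lower too, and C130071C03Rik was not called (0.15 ± 0.36, adjusted p = 0.763).

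Some splicing and chromatin factors of neurons were higher and others were not called. Srrm3 (4.15 ± 0.46) and Srrm4 (3.27 ± 0.34), which drive neuronal microexons, and Celf5 (3.59 ± 0.27) rose, while Qk, the splicing regulator of myelin genes, fell (-2.73 ± 0.41). Of 28 genes in that list of RNA-binding proteins 14 rose and 4 fell (median 0.71). Elavl3 (0.11 ± 0.46), Nova1 (0.67 ± 0.46) and Ptbp2 (-0.37 ± 0.43), which are known as neuronal forms, were not called, and Nova1 was called higher with the replicate block. Among 50 genes of RE1 silencing and neural chromatin 14 rose and 5 fell (median 0.15), with the replicate block 23 rose and 11 fell, and without NeuN-negative library 3 the number that fell was 8. Actl6b, the subunit of the BAF chromatin remodelling complex in neurons, stood at 309, 260, 251, 280 and 178 CPM against 11.2, 12.4, 23.9, 22.4 and 18.1 CPM (3.87 ± 0.27, adjusted p = 5.89e-07). Myt1l, a repressor that keeps neurons from other fates, rose (2.89 ± 0.38), and St18, its relative, fell (-4.48 ± 0.46).

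The RE1 element, bound by the repressor REST at neuronal genes in non-neuronal cells, was looked for in RefSeq promoter windows of 300 bases around each gene start (GRCm38.p6), on both strands. Its left part TCAGCACC was found in 2.17% of the windows of genes higher in NeuN-positive nuclei, 1.83% of those lower, 1.56% of those not called and 1.77% of all 15877 windows of genes tested. For the right part GGACAGCG the shares were 2.30%, 1.78%, 1.87% and 1.95%. Over all 32851 windows, most of which belong to genes not tested, the left part stood in 1.65% and the right part in 1.26%. The 2 parts stood in 1 window for 11 genes tested, and 8 of these genes were higher, none lower and 3 not called, against a background of 22.8% higher. The search for windows with both parts was added after the shares were seen and took the parts in any order and on either strand. Among the 8, the parts stood in the other order in Nrg3 and on opposite strands in Psd, unlike in the RE1 element. A gene that was not called also had them on opposite strands. The 8 became 5 without NeuN-negative library 1, 2 or 4, and 6 or more without any other single library, with none lower in any of these fits; Lhx3, Lrp11 and Tph2 were the 3 whose calls ended without NeuN-negative library 1, 2 or 4. In 4 of the 11 the parts followed each other with 2 bases between them, and these are shown with the parts, or their reverse complement, in capitals, read 5′ to 3′ on the strand of the gene, with Unc13a, where the gap is wider, and Psd, where the 2 parts lie on opposite strands, for comparison. The first 3 lie before the start at chr2:26208254-26208311 (minus strand), chr11:3774772-3774829 (minus strand) and chr14:32321895-32321952 (plus strand), and the others just after it, of which only the site is printed:
Lhx3: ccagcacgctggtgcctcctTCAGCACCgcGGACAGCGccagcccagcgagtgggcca
Osbp2: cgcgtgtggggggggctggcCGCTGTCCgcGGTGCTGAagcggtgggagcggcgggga
Ogdhl: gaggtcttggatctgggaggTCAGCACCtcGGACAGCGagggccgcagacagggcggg
Ttc9b: CGCTGTCCccGGTGCTGA
Unc13a: CGCTGTCCgcgcccccGGTGCTGA
Psd: CGCTGTCCcctTCAGCACC

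Psd, an exchange factor of the postsynaptic density, rose by 3.13 ± 0.36 (adjusted p = 2.39e-05), and Unc13a was described above. Ttc9b rose by 1.89 ± 0.47 (adjusted p = 0.00544) and the oxysterol-binding Osbp2 by 0.95 ± 0.25 (adjusted p = 0.00711), while Ogdhl, a mitochondrial dehydrogenase of the brain, was not called (0.42 ± 0.24, adjusted p = 0.179). Lhx3, a factor of motor and V2a neurons, was at 5.996, 6.33, 4.01, 9.76 and 4.28 CPM against 0.232, 0.255, 5.20, 0.888 and 0.855 CPM, so that NeuN-negative library 3 alone overlapped the NeuN-positive range (2.17 ± 0.76, adjusted p = 0.0332). Its call ended without NeuN-positive library 1, 2 or 4 or NeuN-negative library 1, 2, 4 or 5 (adjusted p from 0.0534 to 0.0739).

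Pairs of related genes, of which one is known as the neuronal form, were compared side by side. In 10 of 32 pairs the neuronal form rose and the other fell, in 6 the neuronal form rose and the other was not called, in 5 both rose, in 4 only the other form was called and fell, in 6 neither was called and in 1 both fell. Not all of these calls were firm. Those of Napb, a neuronal form that rose, and Map4, an other form that fell, each ended in 7 of 10 fits without 1 library. The adjusted p in those fits ran from 0.0593 to 0.111 for Napb and from 0.0507 to 0.107 for Map4. The sharpest contrast was the chloride pair: Slc12a5 (KCC2), which exports chloride and makes GABA inhibitory, stood at 844, 919, 437, 634 and 1123 CPM against 45.2, 53.5, 65.5, 68.6 and 146 CPM (3.38 ± 0.37, adjusted p = 1.63e-05). Slc12a2 (NKCC1), which imports it, stood at 65.5, 56.8, 36.1, 41.9 and 94.3 CPM against 618, 631, 264, 370 and 815 CPM (-3.19 ± 0.36, adjusted p = 1.95e-05). The glucose carriers Slc2a3 (2.19 ± 0.28) and Slc2a1 (-1.96 ± 0.36) divided in the same way. So did the glycine carriers Slc6a5 (2.57 ± 0.52) and Slc6a9 (-1.46 ± 0.54, adjusted p = 0.0419), the latter a call that ended on leaving out NeuN-positive library 1, 2, 3 or 4 or NeuN-negative library 1, 2 or 5 (adjusted p from 0.0566 to 0.12).

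**Figure D3:**
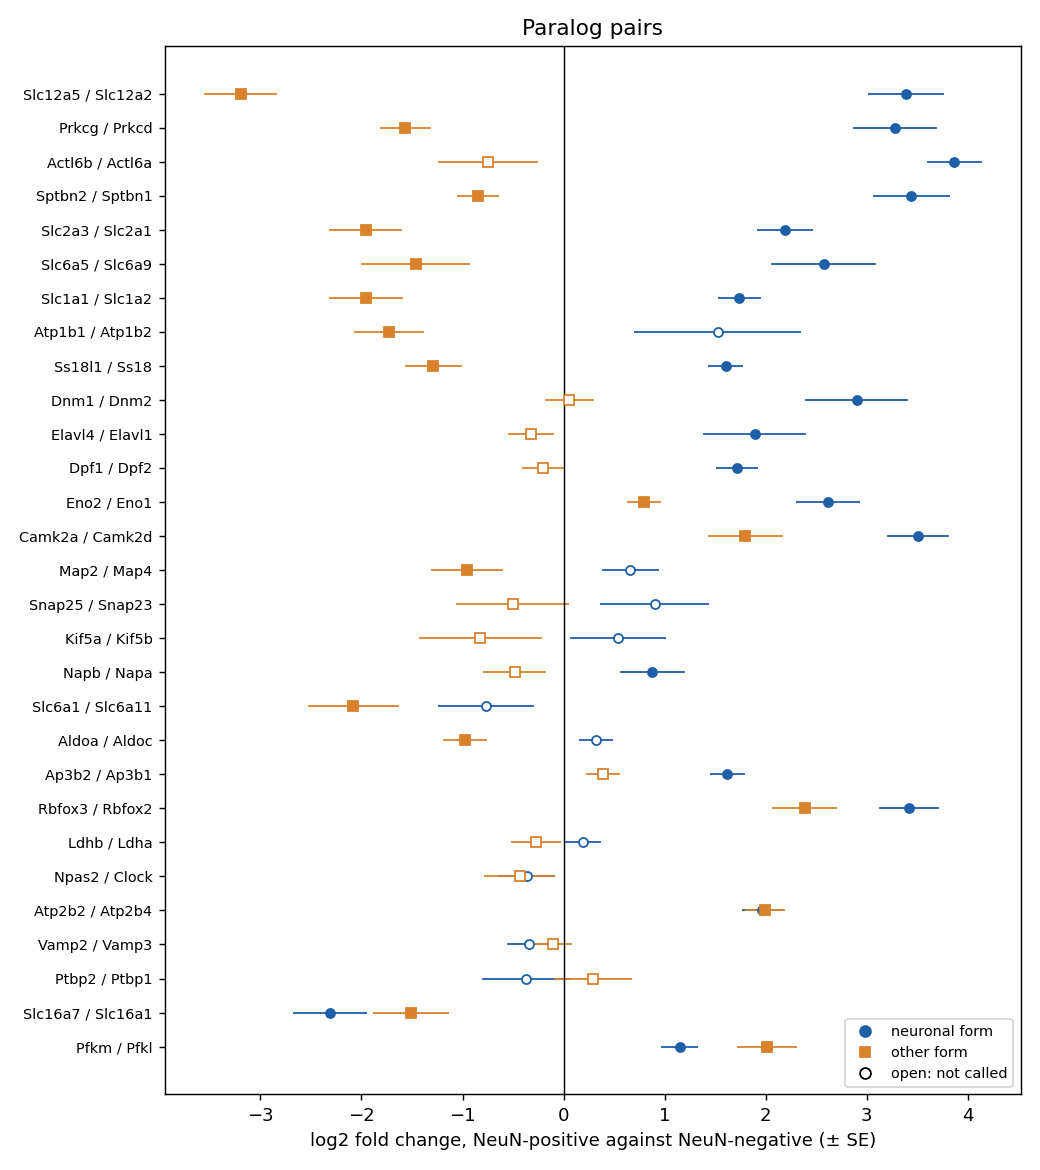
Log2 fold change, NeuN-positive against NeuN-negative, of the neuronal form (blue circles) and the other form (orange squares) of 29 of the 32 gene pairs, ordered by their difference, with bars for 1 standard error and open marks for genes that were not called. The neuronal form lies to the right in 24 of the pairs drawn; Slc12a5 at 3.38 and Slc12a2 at -3.19 lie farthest apart.

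In 5 of the 32 pairs the neuronal form did not have the larger log2 fold change. The pyruvate and lactate carrier Slc16a7, known as the neuronal one, was low throughout at 0.532 to 0.982 CPM in NeuN-positive and 2.41 to 5.06 CPM in NeuN-negative libraries (-2.31 ± 0.37), and Slc16a1 fell with it (-1.51 ± 0.38). Pfkl (2.01 ± 0.30) rose beside Pfkm (1.15 ± 0.19), and the calcium pumps Atp2b2 (1.97 ± 0.20) and Atp2b4 (1.99 ± 0.19) rose alike. Ptbp2 (-0.37 ± 0.43) lay below Ptbp1 (0.29 ± 0.38), and neither of these splicing repressors was called. Neither Vamp2 (-0.35 ± 0.22) nor Vamp3 (-0.11 ± 0.19), the vesicular SNAREs, was called.

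Genes of central metabolism went both ways. Glycolysis genes were 9 higher and 9 lower of 31 (29.0% each, against 22.8% and 23.0% of all genes). Eno2 (2.62 ± 0.32) and Pfkp (1.84 ± 0.17) rose. Hk2 (-3.95 ± 0.37), a hexokinase that tissues can induce, and the pyruvate dehydrogenase kinase Pdk4 (-4.07 ± 0.39) fell. RNA of Pfkfb3, which encodes an activator of glycolysis, was lower but present, at 48.8 to 67.2 CPM against 76.4 to 104.7 CPM (-0.78 ± 0.16, adjusted p = 0.00155). For glycogen, the synthase Gys1 rose (1.89 ± 0.26) and the phosphorylase Pygm fell (-2.46 ± 0.22). Gatm (-4.08 ± 0.44) and Gamt (-1.85 ± 0.27), the pair of enzymes that makes creatine, fell, and the mitochondrial creatine kinase Ckmt1 rose (2.11 ± 0.35). Nuclear-encoded genes of the respiratory chain were 2 higher and 0 lower of 39 (7 and 1 with the replicate block, 5 higher without NeuN-negative library 5). That is 5.13% higher, below the 22.8% of all genes, but limma voom called 18 of the 39 higher (46.2%), above the 36.2% of all genes that it called higher, so the list's place against the background turned with the test. The 7 tested mitochondrially encoded genes were all called lower with the block and without NeuN-positive library 3, and not called in edgeR's test of all 10 libraries.

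Redox and sterol genes leaned to the NeuN-negative side. Of 32 genes of glutathione, thioredoxin and the NRF2 response 14 were lower and 3 higher (median -0.45, with the block 16 and 8, and 5 higher without NeuN-negative library 5). They included Nfe2l2, which encodes NRF2 itself (-2.64 ± 0.31), and the cystine carrier Slc7a11 (-3.27 ± 0.33), whereas Gpx3 (1.40 ± 0.40) and Srxn1 (1.19 ± 0.22) rose. Of 22 cholesterol genes 9 fell, among them Abca1 (-3.20 ± 0.22), the sterol exporter, and Apoe (-1.38 ± 0.30). The 1 that rose was Cyp46a1, the neuronal enzyme that turns cholesterol into a form that leaves the brain, at 350, 333, 459, 413 and 285 CPM against 45.5, 50.5, 68.0, 63.1 and 45.4 CPM (2.76 ± 0.20, adjusted p = 7.96e-07).

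Immune genes were low in NeuN-positive nuclei but not absent. Of 29 complement, toll-like receptor and phagocytosis genes 27 fell (median -3.73) and 1 rose, Gas6, the ligand that bridges dying cells to TAM receptors (1.67 ± 0.24). Of 17 genes of the immunoproteasome and MHC class I 9 fell and none rose. The immunoproteasome, a proteasome with exchanged catalytic subunits that interferon induces, was at 0.589 to 1.23 CPM of Psmb9 against 3.50 to 8.88 CPM (-2.72 ± 0.39), and at 1.44 to 4.52 CPM of Psmb8 against 5.72 to 16.2 CPM (-2.11 ± 0.39). The standard proteasome had 4 of 34 members higher and 3 lower (with the block 8 and 6), both shares below the background. The higher count was 2 without NeuN-positive library 1, 2 or 5 or NeuN-negative library 2 or 4, and the lower count was 0 or 1 without NeuN-positive library 2 or 5 or NeuN-negative library 1, 2 or 4. H2-K1 fell (-2.65 ± 0.29) while H2-D1, another class I gene of the mouse, was not called (0.29 ± 0.25); such near-identical genes can share reads. Of 19 interferon receptor, JAK-STAT and IRF genes 9 fell, with Irf8, a factor of microglia, at -4.57 ± 0.56, and 1 rose (2 without NeuN-positive library 3), Irf9 (0.61 ± 0.17).

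Ligands that pass between neurons and glia were found on both sides of the sort. Microglia are kept alive through Csf1r by 2 ligands: Csf1 was at 17.4 to 22.5 CPM in NeuN-positive and 127 to 238 CPM in NeuN-negative libraries (-3.32 ± 0.21, adjusted p = 3.6e-07), whereas Il34 was at 33.1 to 48.7 CPM against 10.9 to 20.6 CPM (1.27 ± 0.23, adjusted p = 0.0006). Cx3cl1, the neuronal ligand of a microglial receptor, rose by 2.56 ± 0.28. Slit1 (3.85 ± 0.46), an axon repellent, Shh (3.21 ± 0.65), Nrg3 (2.87 ± 0.49), a neuregulin, and the Notch ligand Jag2 (2.57 ± 0.27) rose, while Efnb3, the ephrin that keeps axons from crossing the midline, fell from 844 to 1329 CPM in NeuN-negative to 80.3 to 99.2 CPM in NeuN-positive libraries (-3.56 ± 0.20). Of 37 such ligands 14 rose (37.8%) and 10 fell (27.0%), against 22.8% and 23.0% of all genes. Of 28 growth factor receptors 15 fell, such as Fgfr2 (-3.20 ± 0.18) and Pdgfra (-4.13 ± 0.48), and 4 rose (7 with the block), led by Gfra2 (2.03 ± 0.30) and including Fgfr1 (1.49 ± 0.30).

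Genes that respond to activity within minutes rose and fell at shares near those of all genes (21.1% and 26.3% against 22.8% and 23.0%). Npas4, which is largely restricted to depolarized neurons, stood at 125, 120, 324, 158 and 77.1 CPM against 1.95, 6.68, 31.7, 9.32 and 5.65 CPM (3.90 ± 0.68, adjusted p = 0.000505). Egr1 (2.23 ± 0.46) and Nr4a1 (2.02 ± 0.31) rose as well. Jun (-1.59 ± 0.25), Egr2 (-2.18 ± 0.39), a factor of myelinating Schwann cells among others, and Atf3 (-1.65 ± 0.43), which follows stress and injury, fell, and Fos gave 0.99 ± 0.40 (adjusted p = 0.0605, with the block 0.0327, and called without NeuN-positive library 3 at 0.0166 or 4 at 0.0372). Of 19 members tested 4 rose and 5 fell (3 without NeuN-negative library 2).

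The largest changes, where the mean log2 CPM was 1 or more, included little-studied genes. Beside Vwa5b2, Coro6, Hcrtr1, Mirg and Snhg11, the 10 that rose most were Nkx6-3 (4.49 ± 0.73), Trank1 (4.47 ± 0.32), the receptor kinase Ltk (4.46 ± 0.29), the desmosomal plakophilin Pkp2 (4.30 ± 0.30) and the p38 kinase Mapk11 (4.28 ± 0.40). Ltk was at 99.4, 99.0, 64.1, 80.6 and 102 CPM in NeuN-positive and 2.18, 3.90, 3.65, 4.55 and 5.89 CPM in NeuN-negative libraries. Beside Nlrp1b, Fbxw15 and Cyp3a13, the 10 that fell most were Bcas1os2 (-6.07 ± 1.10), H2-Ob (-5.92 ± 0.68), Bin2 (-5.76 ± 0.43), Tlr7 (-5.67 ± 0.58), Rasal3 (-5.62 ± 0.49), Sash3 (-5.61 ± 0.48) and Ankub1 (-5.57 ± 0.64). Bin2, Tlr7, Rasal3 and Sash3 are known from leukocytes. Bcas1os2 lies antisense to Bcas1, a gene of young oligodendrocytes (-1.56 ± 0.71, called lower without NeuN-positive library 3 at an adjusted p of 0.000367), and without known strand use in the counting the pair cannot be told apart.

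Long genes were more often higher. Of 683 coding genes that span over 250 kb 42.8% were higher and 17.3% lower (median log2 fold change 0.68), against 17.6% and 22.2% of 1618 genes under 5 kb (median -0.05). Bins between 5 and 100 kb had 20.7% to 23.7% higher, close to the background, and 1588 genes of 100 to 250 kb had 31.2% higher and 27.1% lower. Without both libraries numbered 3 the median for genes over 250 kb was 0.74. Many channel, receptor and adhesion genes named above are long, so the bins and the lists share genes.

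**Figure D4:**
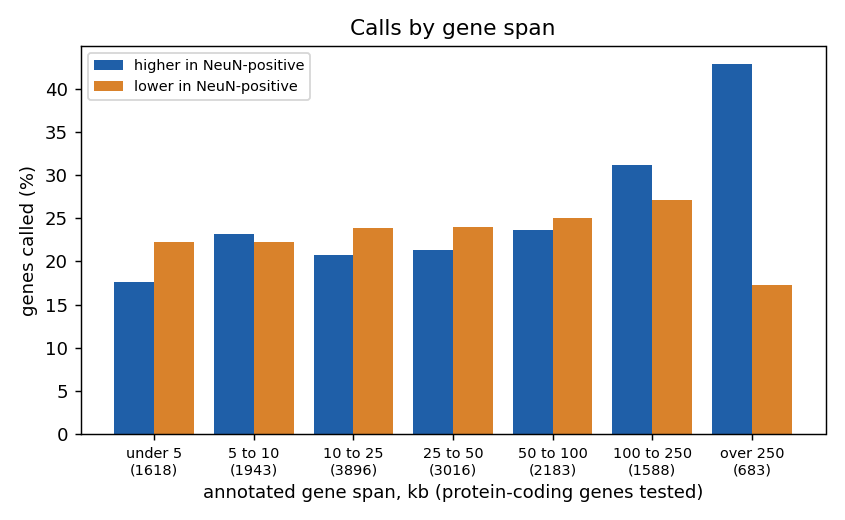
Share of protein-coding genes called higher (blue) or lower (orange) in NeuN-positive nuclei, in percent, by annotated gene span in kb, with the number of genes in brackets. The share called higher stands between 17.6% and 23.7% up to 100 kb and reaches 42.8% over 250 kb.

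The libraries numbered 3 bear on the myelin genes. Mbp, which encodes myelin basic protein, was at 1783, 2017, 31960, 6885 and 2764 CPM in NeuN-positive and at 8747, 11400, 40340, 17590 and 14630 CPM in NeuN-negative libraries 1 to 5 (-1.03 ± 0.79, adjusted p = 0.317). NeuN-positive library 3 lay within the NeuN-negative range. Mobp did the same, with 11960 CPM there and 677 to 2584 CPM in the other 4 (-1.32 ± 0.78, adjusted p = 0.19). Both were lower with the replicate block (adjusted p = 0.000625 for Mbp and 0.000479 for Mobp), without both libraries numbered 3 (0.00419 and 0.00116) and without NeuN-positive library 3 alone (0.00363 and 0.0011). Mog, a protein of the outer myelin surface, did not follow: it was at 28.9 to 62.4 CPM against 896 to 1415 CPM (-4.90 ± 0.30). The mitochondrially encoded share was highest in the same libraries, and its part in the Mbp and Mobp levels was not tested.

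**Figure D5:**
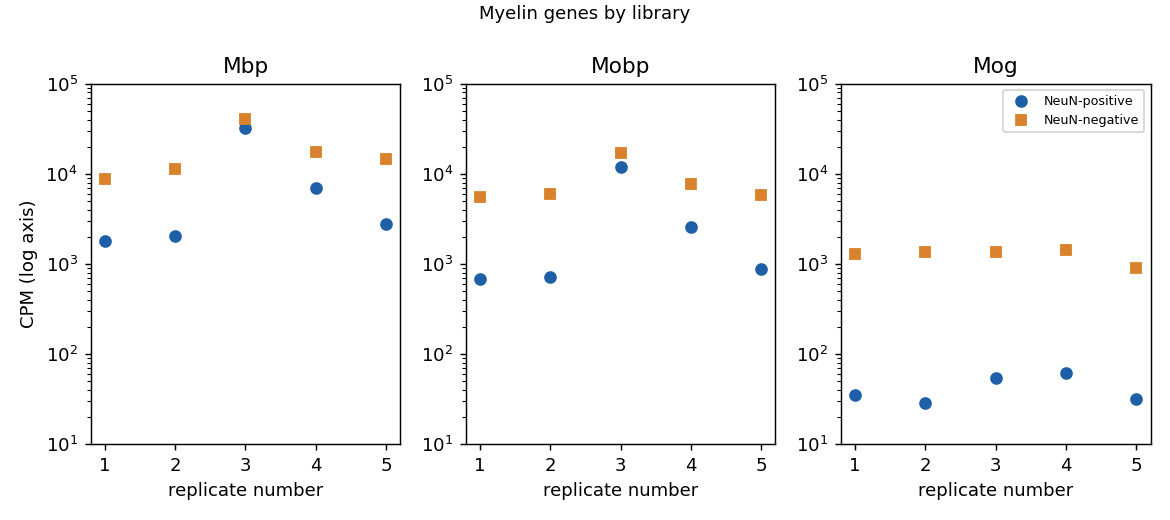
Levels of 3 myelin genes by replicate number, in CPM on a log axis, in NeuN-positive (blue circles) and NeuN-negative libraries (orange squares). Mbp and Mobp in NeuN-positive library 3, at 31960 and 11960 CPM, lie within the NeuN-negative range, whereas Mog stays apart in all 5 numbers.

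The same comparison in the EAE libraries, which share no library with the healthy ones, called 15.5% of 17982 genes higher and 14.8% lower. Of the 3910 genes higher in healthy NeuN-positive nuclei 2001 were called higher there too, which is 51.2% of the healthy and 71.6% of the EAE calls, and 21 were called lower. Of the 3938 lower genes 1691 were called lower again (42.9% of the healthy and 63.5% of the EAE calls) and 18 higher. With the replicate block the healthy comparison called 33.2% of genes higher and 32.5% lower.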

How the data were processed

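Polyadenylated RNA of the sorted nuclei was made into TruSeq libraries, as the labels' protocols state. The deposited table holds whole-number counts per gene. STAR 2.4 and DESeq2 and the builds GRCm39 and mm10 are named in the submitters' processing notes, with no role given; for the counting tool, its strand setting and the build counted, nothing was given in the sources used here. Gene symbols, types and positions were taken from GENCODE M21 (GRCm38) by identifier, and 42462 of 43629 identifiers matched; those without a symbol hold 0.282% to 0.414% of counts.

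Only the 10 healthy libraries entered the main fit: edgeR 4.0.16 (R 4.3.3), filterByExpr by group, TMM, robust quasi-likelihood test, Benjamini-Hochberg over all 17134 genes, called at 0.05. CPM use TMM library sizes. Standard errors are the log2 fold change divided by the root of the F statistic. The fit was tested on simulated data with 200 changed genes. Totals of 8336330 to 37689267 counts limit genes near 1 CPM.

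Same-numbered libraries deviated together in the 2 sorts (correlations 0.532, 0.422, 0.65, 0.53 and 0.788). Correlations between libraries of unlike number ran from -0.619 to 0.469. NeuN-negative library 2 went more with NeuN-positive library 1 (0.469) than with NeuN-positive library 2 (0.422), so these values do not settle the pairs. The numbers, which are in the titles only, were taken as pairs and fitted as a block in an alternative. Other alternatives were DESeq2 1.42.0, limma 3.58.1 voom, other filters, each library left out, all 20 libraries, a 2-fold threshold, no mitochondrially encoded genes and no libraries numbered 3; the last together with the block, a paired test of library measures, a marker sum without Pkd2l1 and the count of genes with both RE1 parts by fit were chosen after seeing the data. Python 3.11.15 with scipy 1.17.1 gave the exact permutation tests.

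The members, the 52 lists (1197 entries, 1191 found, 1067 distinct genes tested) and the pairs were chosen with earlier results of these data known. Genes were named by rule: the 4 marker genes; the 10 largest rises and falls among called genes with mean log2 CPM of at least 1, an established symbol and no overlap of the groups; pair members; of each list the 4 largest called rises and falls with mean log2 CPM of at least 0 and the 2 most abundant uncalled members; and, for each gene type other than protein coding, the 3 largest rises and falls. Chat, Slc5a7, Mog, Nefl, Dlk1, Psmb8, Pfkfb3, Il34, Cx3cl1, Fos, Lhx3, Psd, Lrp11, Tph2, Osbp2, Ttc9b, Ogdhl and the microRNA hosts so marked were named after their values were seen. Some genes are not reported here.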

Additional observations from a re-analysis of the deposited data

Results flagged for a closer look

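In groups of 5 libraries, 27 of 244 combinations of a group with a library measure, a marker sum or a gene had 1 library far from the other 4 (a gap to its nearest neighbour over 0.71 of the group's range). For independent values from a normal distribution this cutoff would flag about 1 in 20. The values were not log-transformed and some combinations share genes, so the 27 cannot be set against that rate. Of the 27, 13 were libraries numbered 3 and 10 were libraries numbered 5. Below, highest and lowest are meant among the 5 libraries of the same sort only.

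NeuN-positive library 3 had the highest share of counts in the 10 most abundant genes (12.18%), the highest mitochondrially encoded share (3.003%) and the highest sums of oligodendrocyte (46310 CPM), oligodendrocyte precursor (1465 CPM) and Schwann cell markers (32360 CPM), lists that share Mbp or other myelin genes. Rasal3 (3.699 CPM) and the protocadherin Pcdhac1 (7.398 CPM) were highest there. NeuN-negative library 3 had the highest share in the 10 most abundant genes (15.56%) and the highest sums of Schwann cell (41590 CPM) and sensory neuron markers (22.33 CPM), and in it Nkx6-3 (0.7023 CPM), Bcas1os2 (77.39 CPM) and the ciliary dynein Dnah9 (19.8 CPM) were highest.

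NeuN-negative library 5 was highest for the astrocyte marker sum (7013 CPM), Rbfox1 (57.89 CPM), Qk (812.6 CPM), Scn1a (64.02 CPM) and Jun (37.03 CPM), and lowest for Bin2 (28.22 CPM), Cacna2d4 (19.98 CPM) and Gabbr1 (922.1 CPM). NeuN-positive library 5 was lowest for the B cell sum (223.5 CPM), which is nearly all Ighm (222.0 CPM). NeuN-positive library 4 was highest for Lyz2 (14.8 CPM) and Psmb8 (4.519 CPM) and lowest for Kcna4 (5.043 CPM). Slc2a1 was highest in NeuN-positive library 1 (65.13 CPM).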

How the results depend on the processing

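The count of genes that differed, 7848 (3910 higher, 3938 lower), became 4041 (1859 and 2182) when tested against a 2-fold change, 11243 (5683 and 5560) with the replicate block, 12211 (6199 and 6012) with limma voom and 12132 (6049 and 6083) with the block and without both libraries numbered 3, the last chosen after seeing the data. Leaving out 1 library gave 6988 to 8654 genes, 3503 to 4354 higher and 3471 to 4300 lower. The count stayed within 1.5 times with DESeq2 size factors, no filter, a stricter filter, no mitochondrially encoded genes, all 20 libraries, DESeq2's own test and no libraries numbered 3. Of 327 called genes among the 433 that the rule names, 251 kept their call in every alternative and 39 lost it only against a 2-fold change; of the 106 not called, 36 kept that. The block ended no call and added 57. Maf, at 0.04, reversed to -0.48 with the block and without both libraries numbered 3, and Nefl, at -0.03, to 0.52 with limma voom; the cause was not tested. Genes near 1 CPM rest on few counts.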

Other observations

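Gene levels also varied with the replicate number in both sorts together. Of 11284 genes whose mean log2 CPM was 3 or more, 654 were over 2-fold higher and 695 over 2-fold lower in both libraries numbered 3 than in the mean of the other 4 of their sort. For number 5 the counts were 660 and 457, and for numbers 1, 2 and 4 they were 10 and 69, 0 and 35, and 69 and 42. The median transcript GC content was 53.1% for genes higher and 43.8% for genes lower with number 3, and 43.3% and 54.7% with number 5, against 50.2% over all genes examined.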
